A study of Mus musculus with 4 samples.

Results

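The adipocyte lineage genes described here are 10 genes of fat cell formation and function, *Pparg*, *Cebpa*, *Cebpb*, *Cebpd*, *Fabp4*, *Lpl*, *Adipoq*, *Plin1*, *Cd36* and *Zfp423*, read in mouse embryonic fibroblasts (MEFs). They were chosen by name, and every probe on the array that is listed under a mouse RefSeq transcript of a member was taken, which gave 24 of the 43553 probes and 10 of 17466 genes. The study compared growing MEFs at passage 2 with MEFs at passage 7, where replicative senescence set in, and no genotype, transgene or agent is given for either group. All cultures grew in DMEM with 10% fetal bovine serum and antibiotics; strain and embryonic age are not given in the sources used here. Each passage was read on 2 arrays of 1 colour (Cy3). RNA of 3 independent cultures was pooled before it was measured, so the 2 arrays of a passage may be technical repeats. The p-values then measure the spread between arrays and not between cultures.

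Fat cells arise from fibroblast-like precursors through a relay of transcription factors. Zfp423 marks and commits precursors, C/EBPβ and C/EBPδ act early, and they raise PPARγ and C/EBPα, which keep each other on and switch on the genes of lipid uptake and storage. Among those are the fatty acid carrier Fabp4, the lipoprotein lipase Lpl, the fatty acid receptor Cd36, the lipid droplet coat Plin1 and the hormone adiponectin (*Adipoq*). MEFs are a classical model of this relay because a hormone cocktail turns part of them into fat cells; no such cocktail is named in the labels here.

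At passage 7 the lipid-handling targets of the relay went in opposite directions. *Fabp4* was 4.41-fold higher, *Lpl* 4.09-fold lower and *Cd36* 2.98-fold lower, and the commitment factor *Zfp423* was 2.78-fold lower. Of the 8 member genes bright enough to test, 3 fell, 1 rose and 4 did not pass, with a call asking for at least 2-fold and an adjusted p under 0.05 in limma. Over all 13848 genes tested, 9.42% were called lower and 9.99% higher, and 19.4% either way. Of the 20 tested probes of these genes, 6 fell, 2 rose and 12 did not pass; over all 30870 probes tested 8.53% fell and 8.72% rose, 17.2% in all. The members that did not pass were *Pparg*, *Cebpa*, *Cebpb* and *Cebpd*. *Adipoq* and *Plin1*, the genes most specific to mature fat cells, lay at or under the detection limit and were not tested. The median change of the 8 tested members was -0.43 on the log2 scale, against 0.20 for all genes tested. The shares of all tested genes given above are also the comparison for each gene list below.

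Levels below are log2 values of the processed signal relative to the 75th percentile of the same array, so 0 stands for the signal at that percentile, and a level is compared only within 1 probe. The 75th percentile itself was a signal of 1024 and 1404 at passage 2 and of 964 and 402 at passage 7, and 65.8% to 72.7% of spots were well above background. The robust SD between the 2 arrays of a passage over all tested genes was 0.33 at passage 2 and 0.19 at passage 7. Of the 8 tested members 6 did not overlap between passages, *Pparg* and *Cebpb* among them, which were not called. The share of all tested genes without overlap was not counted. With the array median as the reference point the median change of all genes was 0.03, and the share of rises among changed genes was 41.2% in place of 51.5%; it was 42.3% with quantile normalization and 36.2% in the authors' value table. With 4 arrays in all, precision is limited by their number. All lie on 1 slide, and because the passages lie at different positions of it, position and passage cannot be told apart.

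**Figure D1:**
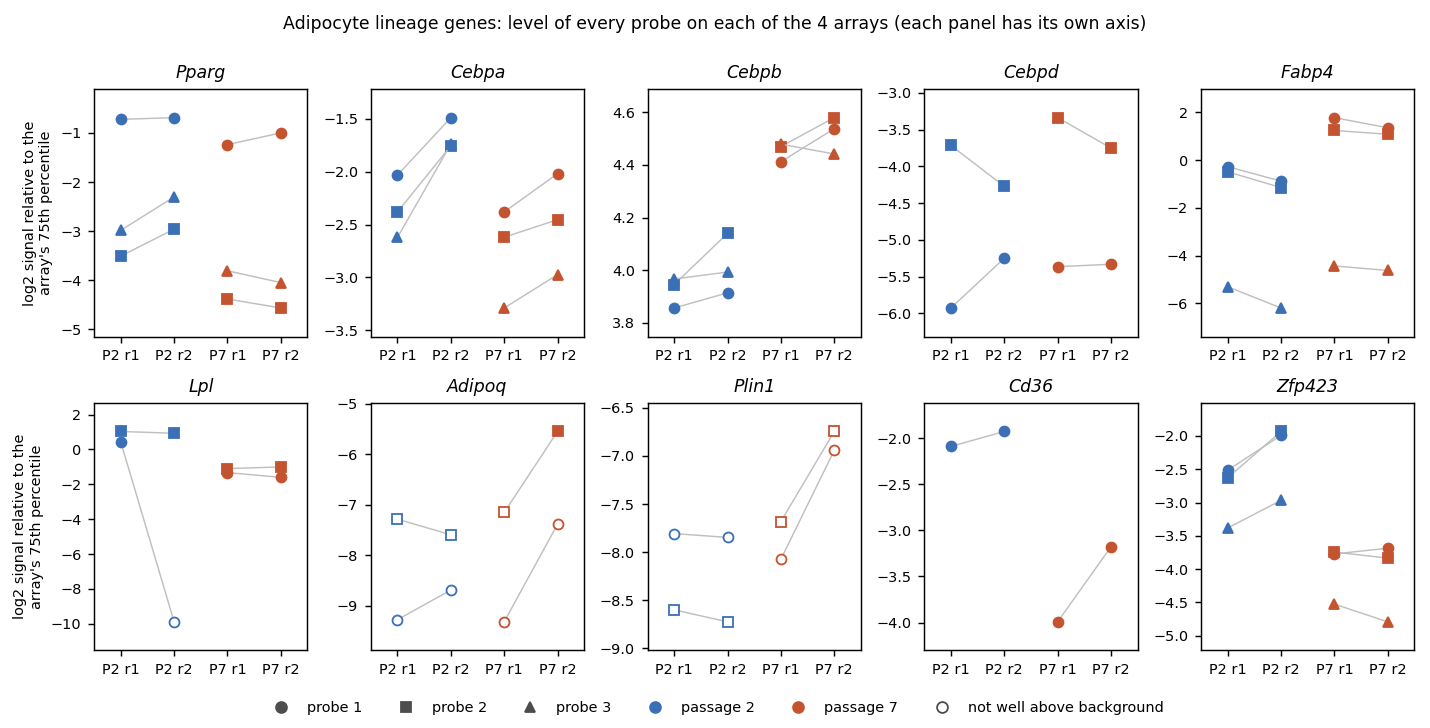
Level of every probe of the 10 genes on each array (log2 signal relative to the array's 75th percentile; P, passage; r, replicate), with a panel and an axis for each gene, a symbol for each probe, and grey lines joining the 2 arrays of a passage. Within a probe, the passage 7 points lie apart from passage 2 for 16 of the 20 tested probes. All probes of *Fabp4*, *Cd36* and *Zfp423* are among them, and so are all those of *Pparg* and *Cebpb*, which were not called as genes. A point of *Lpl* lies at -9.88, and the *Plin1* points are open because none was well above background.

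Upstream regions are printed for *Zfp423* and *Cd36*, which fell, and for the first and the last start of *Pparg*, whose base composition differs widely. RefSeq (GRCm38.p6) gave windows of 250 bases upstream of 10 starts for 7 of the 10 members, and none for *Cebpd*, *Fabp4* and *Lpl*. *Pparg* has 3 starts and *Zfp423* has 2. In each sequence, written 5′ to 3′ along the gene, capitals mark matches on either strand to 1 of 7 motifs searched: the PPAR response element (AGGTCA repeated in the same direction with 1 base between), the C/EBP motif TTGCNNAA, the EBF motif (TCCC and GGGA with 2 bases between), the TATA box TATAAA, the GC box GGGCGG, the CCAAT box CCAAT and the E-box CACGTG. The regions are chr6:115360894-115361143 (+ strand) and chr6:115421816-115422065 (+ strand) for the first and the last *Pparg* start, chr8:87959596-87959845 (- strand) for the first *Zfp423* start and chr5:17835897-17836146 (- strand) for *Cd36*.
Pparg first start: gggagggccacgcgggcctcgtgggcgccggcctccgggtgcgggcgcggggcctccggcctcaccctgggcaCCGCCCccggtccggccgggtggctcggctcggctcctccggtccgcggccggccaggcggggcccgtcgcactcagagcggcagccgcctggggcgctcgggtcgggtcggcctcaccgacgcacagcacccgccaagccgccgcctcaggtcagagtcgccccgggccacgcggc
Pparg last start: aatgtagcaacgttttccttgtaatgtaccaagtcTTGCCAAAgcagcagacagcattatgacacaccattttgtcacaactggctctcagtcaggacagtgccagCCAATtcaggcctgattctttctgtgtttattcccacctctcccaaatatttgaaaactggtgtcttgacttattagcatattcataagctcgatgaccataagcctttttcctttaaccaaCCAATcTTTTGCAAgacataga
Zfp423 first start: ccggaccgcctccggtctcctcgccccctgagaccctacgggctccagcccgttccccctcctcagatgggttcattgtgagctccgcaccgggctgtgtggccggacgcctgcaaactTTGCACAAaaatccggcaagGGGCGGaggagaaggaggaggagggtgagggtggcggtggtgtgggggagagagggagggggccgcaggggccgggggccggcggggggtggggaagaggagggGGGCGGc
Cd36: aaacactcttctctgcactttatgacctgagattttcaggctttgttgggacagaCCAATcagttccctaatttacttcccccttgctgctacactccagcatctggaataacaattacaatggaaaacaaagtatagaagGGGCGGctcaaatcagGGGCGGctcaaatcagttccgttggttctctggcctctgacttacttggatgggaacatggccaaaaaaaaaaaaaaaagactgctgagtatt

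The first *Pparg* window is 82.4% G and C with 1 GC box, and the last is 40.8% G and C with 2 C/EBP and 2 CCAAT matches that do not overlap, against a median of 52.4% G and C over all windows. The C/EBP letters occur in 9.56% of the 32851 windows of this length, the GC box in 32.7% and the CCAAT box in 33.8%. The first *Zfp423* window holds 1 C/EBP match, 131 to 124 bases before the start, and 2 GC boxes, and the *Cd36* window holds 2 GC boxes and 1 CCAAT match. *Cebpa* and the second *Pparg* start have a TATA box (12.4% of windows), and *Plin1* has 2 C/EBP matches. No window of a member held the PPAR element, the EBF motif or the E-box, which occur in 0.0335%, 0.779% and 6.02% of windows. *Fabp4*, *Lpl* and *Cebpd* had no window to search. A match is a run of letters and says nothing of binding.

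*Zfp423* encodes a zinc finger protein that binds DNA and sensitises precursors to BMP signals. Its 3 probes fell alike. The brightest stood at -2.52 and -1.99 at passage 2, and at -3.77 and -3.68 at passage 7, a mean of -2.25 ± 0.37 (SD, n = 2) against -3.73 ± 0.061. Both passage 7 arrays were lower than both passage 2 arrays, and the passage 2 arrays were the ones that differed more among themselves. The change was -1.48 ± 0.24 (SE; 95% interval -2.12 to -0.83; adjusted p = 0.019 in limma). The second probe stood at -2.63 and -1.93 against -3.74 and -3.83, and the third at -3.38 and -2.97 against -4.52 and -4.79. In the fit over all 30870 probes tested the 3 changes were -1.48, -1.51 and -1.48, with adjusted p-values of 0.028, 0.036 and 0.027. Leaving out passage 7 replicate 1 or replicate 2 ended the call (adjusted p = 0.072 and 0.077), while the change lay between -1.74 and -1.21 with any 1 array left out. It was 0.23 with normexp background correction, -0.67 with the same correction after marked backgrounds were replaced, and -0.82 with normexp and quantile normalization, none of them called. In the same settings the median change of all genes was 0.50, 0.38 and 0.013.

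*Zfp521*, a related zinc finger gene that holds precursors back from the fat fate, fell too, from 2.30 and 2.51 to 0.96 and 0.82 (change -1.52 ± 0.19, adjusted p = 0.011). Leaving out passage 7 replicate 2 gave -1.45 (adjusted p = 0.069). The partners of both proteins in DNA binding, the early B cell factors, did not pass the 2-fold minimum. *Ebf2* had a change of -0.85 ± 0.17 (adjusted p = 0.03) and *Ebf1* of -0.17 ± 0.20 (adjusted p = 0.55). With median scaling *Ebf2* passed, at -1.02.

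*Cebpb* encodes C/EBPβ, which is induced first in adipogenesis and also drives the inflammatory genes of senescent cells. Its brightest probe stood at 3.95 and 4.14 at passage 2 and at 4.47 and 4.58 at passage 7. The groups did not overlap, yet the change of 0.48 ± 0.19 was under 2-fold and missed the threshold (95% interval -0.0089 to 0.97; adjusted p = 0.12). The other 2 probes stood at 3.86 and 3.91 against 4.41 and 4.54 and at 3.97 and 3.99 against 4.48 and 4.44, and gave changes of 0.59 and 0.48, with adjusted p-values of 0.10 and 0.14 over all probes. Relative to the median of all genes the change of *Cebpb* was 0.28, and with quantile normalization it was -0.0029, so no direction is given for it.

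*Cebpd*, the other early factor, was dim. Its brighter probe stood at -3.71 and -4.27 at passage 2 and at -3.34 and -3.75 at passage 7, and the groups overlapped. The change was 0.45 ± 0.28 (95% interval -0.30 to 1.2; adjusted p = 0.30). The dimmer probe stood at -5.93 and -5.25 against -5.36 and -5.33, and changed by 0.24 (adjusted p = 0.58), and by -0.099 with passage 2 replicate 1 left out. Among relatives that hamper these factors as partners, *Ddit3*, the stress-induced C/EBP homologue CHOP, rose by 2.15 ± 0.34 (adjusted p = 0.017), and *Cebpg* had a change of 0.13 ± 0.19 (adjusted p = 0.64).

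*Pparg* encodes PPARγ, the nuclear receptor without which no fat cell forms. Its 3 probes are listed under the same transcript and were lower at passage 7 on both arrays, but by different amounts. The brightest probe stood at -0.73 and -0.69 at passage 2 and at -1.24 and -1.0 at passage 7, a change of -0.41 ± 0.19 (95% interval -0.91 to 0.084; adjusted p = 0.17), which did not pass. The second probe went from -3.51 and -2.96 to -4.38 and -4.56, and its change of -1.24 ± 0.27 passed in the fit over all probes (adjusted p = 0.043). The third went from -2.98 and -2.30 to -3.81 and -4.05, a change of -1.28 ± 0.30 that narrowly missed (adjusted p = 0.052). Whether *Pparg* passed therefore depends on the probe, and with the mean of its 3 probes the change was -0.98 (adjusted p = 0.036), still short of 2-fold. The second probe lost its call when passage 2 replicate 2 was left out (-0.96, adjusted p = 0.097), when either passage 7 array was (adjusted p = 0.13 and 0.22) and with quantile normalization (-1.38, adjusted p = 0.051). The difference between probes was not tested, and which transcripts each probe reads was not analysed here.

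*Cebpa* encodes C/EBPα, which sustains PPARγ and insulin sensitivity in mature fat cells. Its brightest probe stood at -2.03 and -1.49 at passage 2 and at -2.38 and -2.02 at passage 7, where the higher passage 7 array lay just above the lower passage 2 array. Its change was -0.44 ± 0.27 (95% interval -1.16 to 0.28; adjusted p = 0.29). The second probe stood at -2.38 and -1.76 against -2.62 and -2.45, and the third at -2.62 and -1.74 against -3.29 and -2.97, so that only the brightest overlapped between passages. Their changes were -0.47 and -0.95 (adjusted p = 0.30 and 0.14), and none of the 3 passed.

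**Figure D2:**
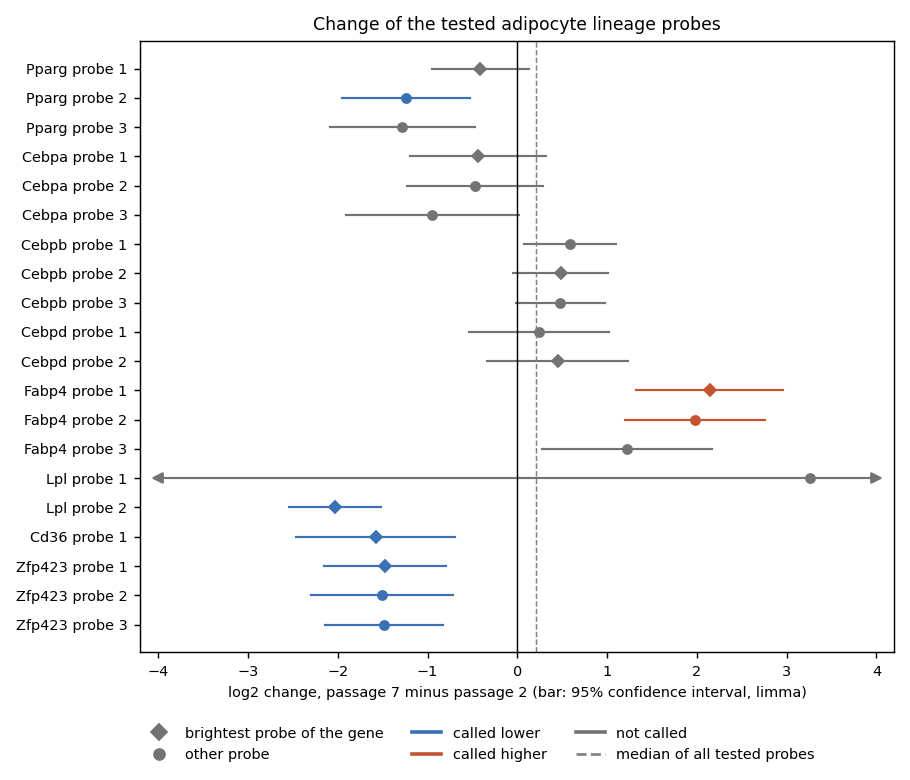
Change of each of the 20 tested probes between passages (log2, passage 7 minus passage 2; bars are 95% confidence intervals from limma; the dashed line is the median of all tested probes). The *Zfp423* probes lie together at -1.48 to -1.51, the *Pparg* probes spread from -0.41 to -1.28, and the bar of *Lpl* probe 1 runs past the axis on both sides.

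*Fabp4* encodes the fatty acid binding protein aP2, a PPARγ target of fat cells that macrophages and capillary endothelium also make. Its brightest probe stood at -0.27 and -0.88 at passage 2 and at 1.78 and 1.35 at passage 7, a mean of -0.58 ± 0.43 against 1.56 ± 0.30 (SD, n = 2). Every passage 7 array was above every passage 2 array. The change was 2.14 ± 0.30 (95% interval 1.36 to 2.92; adjusted p = 0.014), a higher value than 98.2% of tested genes had. The second probe went from -0.49 and -1.15 to 1.24 and 1.08, a rise of 1.98 ± 0.29 (adjusted p = 0.021). The third, the dimmest, went from -5.30 and -6.19 to -4.43 and -4.62, a change of 1.22 ± 0.35 that did not pass (adjusted p = 0.079). With any 1 array left out the gene, read by its brightest probe, kept its call, at changes of 1.84 to 2.44. In the fits over all probes the second probe then changed by 1.65 to 2.31. It kept its call only without passage 2 replicate 1. The second probe also lost its call with the replicate block (adjusted p = 0.063 in limma). The same held when dim spots stayed in the test (adjusted p = 0.068 in limma). In the authors' value table the second probe changed by 1.60 and the third by 0.32.

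Relatives of *Fabp4* were measured beside it. *Fabp3*, the carrier of heart and muscle, rose from 2.18 and 1.68 to 3.44 and 3.65 (change 1.62 ± 0.25, adjusted p = 0.016), and its 3 probes changed by 1.62 to 1.65. *Fabp7*, the carrier of neural precursors, fell by 1.21 ± 0.19 (adjusted p = 0.017), and *Fabp5*, which lies close to *Fabp4* in sequence, had a change of -0.50 ± 0.22 (adjusted p = 0.15). Cross-binding between these relatives was not tested.

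*Lpl* encodes lipoprotein lipase, the secreted enzyme that frees fatty acids from circulating triglyceride. Its brighter probe stood at 1.03 and 0.93 at passage 2 and at -1.10 and -1.0 at passage 7, a mean of 0.98 ± 0.072 against -1.05 ± 0.070 (SD, n = 2). The arrays of a passage lay close together and the passages far apart. The change was -2.03 ± 0.18 (95% interval -2.50 to -1.56; adjusted p = 0.0065), and 2.98% of tested genes had a lower one. With any 1 array left out it was -2.08 to -1.98 and kept its call. The dimmer probe read 0.43, -1.33 and -1.60 on the passage 2 replicate 1 and the passage 7 arrays, but -9.88 on the passage 2 replicate 2 array. There its processed signal was 1.49, not well above background and bearing no outlier flag, while the brighter probe read 2675 on that array. With this spot the change of the dimmer probe was 3.26 ± 3.44 (adjusted p = 0.53), and leaving that array out gave -1.89 (adjusted p = 0.064). The mean of both *Lpl* probes, which holds that spot, gave 0.62 (adjusted p = 0.80). With normexp background correction on the median spot signal no gene passed in limma (662 had an unadjusted p under 0.05), *Fabp4* and *Lpl* included, whose changes were then 1.80 and -1.56 (adjusted p = 0.56 for both).

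*Cd36* encodes the scavenger receptor and fatty acid translocase of fat cells, macrophages and capillaries, and has 1 probe here. It stood at -2.09 and -1.93 at passage 2 and at -3.99 and -3.18 at passage 7, so the groups did not overlap, although the 2 passage 7 arrays differed by more than those of the other called members. The change was -1.58 ± 0.32 (95% interval -2.42 to -0.73; adjusted p = 0.03). The call ended when passage 2 replicate 1, passage 2 replicate 2 or passage 7 replicate 1 was left out (adjusted p = 0.076, 0.11 and 0.091), at changes of -1.66, -1.5 and -1.17. The change was -0.020 with normexp correction, -0.83 after marked backgrounds were replaced and -0.90 with normexp and quantile normalization, none of them called.

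*Lpl* and *Cd36* are also made by macrophages, and markers of that cell type were measured beside them. Of 12 tested macrophage markers 5 fell and none rose, where 9.42% of all tested genes were called lower and 9.99% higher. Their median change was -0.90, against 0.20 for all tested genes. The summed level of the markers was 2.30 to 2.64 at passage 2 and 1.53 to 1.90 at passage 7. The macrophage receptor gene *Csf1r* fell by 1.26 ± 0.25 (adjusted p = 0.028) and *Adgre1*, a surface receptor gene of these cells, by 2.15 ± 0.27 (adjusted p = 0.012), and the other 3 were *Mrc1*, *Cx3cr1* and *Mpeg1*. *Adgre1* did not clear background on passage 7 replicate 2. The other 7 did not pass. Among them *Cd14* had a change of -0.019 (adjusted p = 0.95) and the myeloid factor *Spi1* of 0.44. *Itgam*, *Tyrobp*, *Fcer1g*, *C1qa* and *C1qb* were lower on both passage 7 arrays. Their changes were -0.73, -0.83, -0.83, -0.61 and -0.96 (adjusted p = 0.052, 0.051, 0.069, 0.18 and 0.081 in limma). *Itgam* did not clear background on passage 7 replicate 2. *Mrc1*, *Cx3cr1*, *Mpeg1* and the 7 that did not pass were named after their values were seen. *Ptprc*, the pan-leukocyte CD45 gene, was not well above background on any array, and *Cd68* and *Lyz2* had no matched probe. *Fabp4*, which macrophages make as well, went the other way. The part of these cells in the changes of *Lpl*, *Cd36* and *Fabp4* was not tested, and in bulk RNA fewer cells of a type cannot be told apart from less RNA per cell.

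*Adipoq* and *Plin1* were near or under the detection limit. The brighter probe of *Adipoq* had processed signals of 6.54 and 7.24 at passage 2 and 6.75 and 8.57 at passage 7, and was well above background on the passage 7 replicate 2 array alone. With the passage 7 replicate 1 array left out, that array admitted *Adipoq* to the test, which then called it higher and raised the count of rises to 2. The brighter *Plin1* probe had signals of 4.57 and 6.10 at passage 2 and 3.58 and 3.27 at passage 7, and neither of its probes was well above background on any array. Of the further markers of mature fat cells, *Lep*, *Cfd* and *Cidec* were not well above background on any array. *Plin4* had a change of 0.70 ± 0.18 (adjusted p = 0.055) and *Slc2a4*, the insulin-responsive glucose transporter, of -0.68 ± 0.27 (adjusted p = 0.13). *Lipe* and *Adrb3*, also among these further markers, were called higher, with changes of 1.44 ± 0.30 and 2.40 ± 0.27 (adjusted p = 0.032 and 0.0092 in limma). *Retn* had no matched probe. *Plin4*, *Slc2a4*, *Lipe* and *Adrb3* were well above background on all 4 arrays, unlike *Adipoq*, *Plin1*, *Lep*, *Cfd* and *Cidec*.

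Of 23 tested factors that promote fat formation, 3 rose, 2 fell and 18 did not pass, a share near the 9.99% higher and 9.42% lower of all tested genes; set against the median of all genes, their median was -0.18. *Nr1h3*, the oxysterol receptor LXRα, rose from -3.62 and -3.81 to -1.68 and -1.73 (change 2.01 ± 0.18, adjusted p = 0.0066), and *Bmp4* by 1.41 ± 0.21 (adjusted p = 0.016). *Ppard*, the widely made relative of *Pparg*, rose by 1.03 ± 0.18 (adjusted p = 0.022), just past 2-fold, and was under 2-fold with median scaling (0.86), quantile normalization (0.99) and in the authors' value table (0.89). *Ppargc1b*, a coactivator of mitochondrial genes, fell by 2.59 ± 0.28 and *Bmp2* by 1.87 ± 0.18 (adjusted p = 0.0086 and 0.0071). The heterodimer partner *Rxra* (0.45 ± 0.19), *Ppara* (0.28 ± 0.29), *Klf4* (0.020 ± 0.24) and *Klf5* (-0.81 ± 0.34) did not pass (adjusted p = 0.15, 0.51, 0.96 and 0.14). Leaving out passage 7 replicate 2 left 1 rise among these factors, and leaving out passage 2 replicate 1 gave 4 falls.

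Of 24 genes that restrain fat formation, 5 fell, 1 rose and 18 did not pass; set against the median of all genes, theirs was -0.32. *Dlk1*, the preadipocyte factor that is shed from precursors, fell from 5.21 and 4.66 to 0.32 and 0.54 (change -4.51 ± 0.26, adjusted p = 0.005). *Wnt6* and *Sox9*, the cartilage factor, fell by 1.90 ± 0.36 and 1.87 ± 0.20 (adjusted p = 0.025 and 0.0086), besides *Zfp521* above. *Wnt6* did not clear background on passage 7 replicate 2. *Ddit3* was the 1 that rose. *Ncor1*, a corepressor named after its values were seen, was the remaining fall. With passage 2 replicate 2 or either passage 7 array left out 3 fell, and with passage 2 replicate 1 left out 2 rose.

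Surface markers of fat precursors were divided, with 3 of 9 lower and 2 higher. *Pdgfra*, the PDGF receptor of fibroblasts and precursors, went from 0.23 and 0.65 to -2.31 and -1.90 (change -2.54 ± 0.26, adjusted p = 0.0076). *Dpp4* fell by 2.50 ± 0.37 and *Cd24a* by 1.19 ± 0.28 (adjusted p = 0.016 and 0.04), whereas *Icam1* rose by 1.35 ± 0.23 and *Cd34* by 1.12 ± 0.18 (adjusted p = 0.021 and 0.018). *Dpp4* did not clear background on passage 7 replicate 2. The median change of the 9 was 0.67, against 0.20 for all tested genes. No marker passed as higher with either passage 7 array left out, and 1 fell with passage 2 replicate 2 left out; 3 rose with passage 2 replicate 1 left out, and 2 fell with either passage 7 array left out.

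Genes of the lipid droplet and of lipolysis that changed were mostly higher, with 4 of 12 tested higher and 1 lower and a median of 0.47 above all genes. *Plin2*, the droplet coat protein of cells other than fat cells, rose from 4.12 and 3.77 to 5.42 and 5.54 (change 1.54 ± 0.21, adjusted p = 0.013). The 3 lipases of stepwise triglyceride breakdown rose beside it: *Pnpla2*, adipose triglyceride lipase, by 1.41 ± 0.20, *Lipe*, hormone-sensitive lipase, by 1.44 ± 0.30 and *Mgll*, monoglyceride lipase, by 1.25 ± 0.18 (adjusted p = 0.014, 0.032 and 0.015). *G0s2*, the inhibitor of adipose triglyceride lipase, fell by 1.84 ± 0.25 (adjusted p = 0.013). *Lipe* was dim, and its change in the authors' value table was 0.46 (adjusted p = 0.11). With passage 7 replicate 2 left out no gene of the list passed as higher, and with passage 7 replicate 1 left out 1 did.

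Of 28 genes of fatty acid and triglyceride handling, 6 fell, 2 rose and 20 did not pass; their median, with that of all genes taken off, was -0.45. *Elovl6*, the elongase of long-chain fatty acids, fell by 2.10 ± 0.27, *Gpam*, the first enzyme of triglyceride synthesis, by 2.02 ± 0.40 and *Acsl3*, an acyl-CoA synthetase, by 2.01 ± 0.19 (adjusted p = 0.012, 0.029 and 0.007). *Fabp7* fell too, as did *Acsl1* and *Acsl4*, which were named after their values were seen, and the rises were *Fabp3* and *Lpin3*, a phosphatidate phosphatase (1.11 ± 0.21, adjusted p = 0.025). The lipogenic enzymes *Fasn* and *Scd1* did not pass, with changes of -0.0064 ± 0.19 and -0.60 ± 0.18 (adjusted p = 0.98 and 0.074). *Gpam* was dim and did not clear background on passage 7 replicate 2, and its change was -0.82 in the authors' value table. With passage 2 replicate 2 left out 2 genes fell, with passage 7 replicate 1 left out 3 fell and 1 rose, and with passage 7 replicate 2 left out 2 fell and none rose.

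Among the partners of *Lpl*, the inhibitor *Angptl4* rose from 0.030 and -0.70 to 1.70 and 1.78 (change 2.08 ± 0.30, adjusted p = 0.014), the direction opposite to that of *Lpl*, and its 3 probes changed by 2.08 to 2.23. *Vldlr*, the lipoprotein receptor, fell by 1.08 ± 0.17 (adjusted p = 0.018), and 9 of the 11 tested did not pass. *Gpihbp1*, which anchors the enzyme on capillaries, had a change of 0.83 ± 0.41 (adjusted p = 0.20). *Vldlr* lost its call with passage 2 replicate 2 or either passage 7 array left out, and 4 partners rose with passage 2 replicate 1 left out.

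Of 7 tested adipokines and their receptors 3 rose and 2 fell. *Rbp4*, the retinol carrier, rose from -2.46 and -2.76 to 1.74 and 1.90 (change 4.43 ± 0.20, adjusted p = 0.005) and *Adipor1*, an adiponectin receptor, by 1.32 ± 0.19 (adjusted p = 0.015). *Apln* fell by 2.96 ± 0.26 and *Nampt* by 1.90 ± 0.18 (adjusted p = 0.0065 and 0.0066). With either passage 7 array left out 1 gene rose, and with either passage 2 array left out 2 rose. Of 6 tested genes of thermogenic fat, *Cox7a1* rose by 2.47 ± 0.44 and *Adrb3* by 2.40 ± 0.27 (adjusted p = 0.022 and 0.0092), and *Tmem26* was at least 21.1-fold lower (adjusted p = 0.0066), as it was not well above background on either passage 7 array. Of the 10 genes of this list 4 were not well above background on any array.

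**Figure D3:**
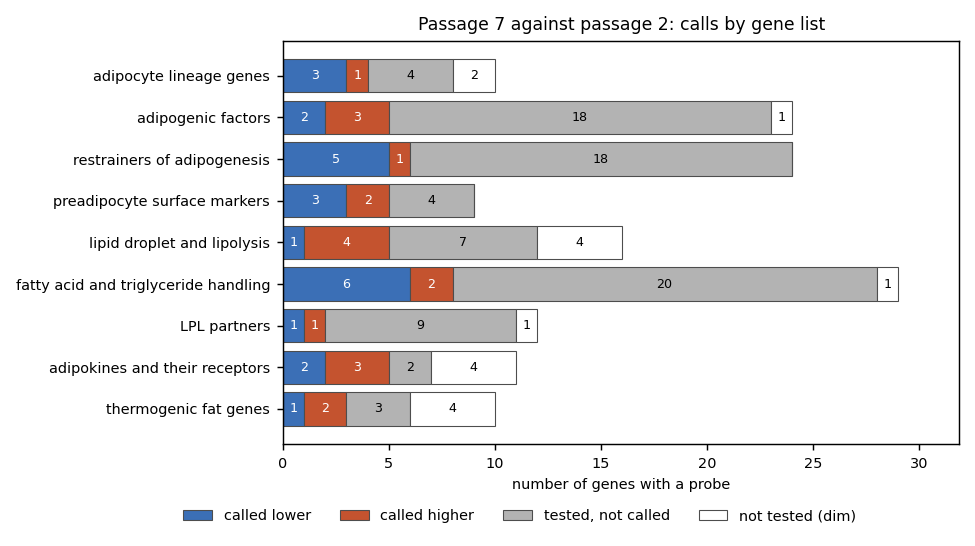
Number of genes called lower, called higher, tested without a call and too dim to test, for the adipocyte lineage genes and the 8 lists around them. Lower calls lead in fatty acid and triglyceride handling (6 against 2) and among the restrainers (5 against 1). Higher calls lead in the lipid droplet and lipolysis list (4 against 1). Over all tested genes 9.42% were called lower and 9.99% higher.

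The labelled cell type was checked by markers. All 14 fibroblast markers were well above background on all 4 arrays, among them the collagen genes *Col1a1* and *Col1a2*, with changes of 1.04 ± 0.36 and -0.73 ± 0.20 that did not pass (adjusted p = 0.10 and 0.06). *Lum* and *Col6a1* fell. Chondrocyte markers fell in 9 of 11 cases, with a median of -1.87, against 0.20 for all tested genes. Their summed level was 5.33 at passage 2 on both arrays and 2.84 and 2.71 at passage 7. Of 11 endothelial markers, made by a cell type that also makes *Fabp4*, *Cd36* and *Gpihbp1*, 1 was called higher, *Emcn*, and none lower. Their summed level was 1.30 to 1.88 at passage 2 and 1.98 to 2.05 at passage 7. The brightest gene, *Egfl7*, weighs most in that sum, at 1.47 and 0.77 against 1.47 and 1.51. The defining endothelial genes *Pecam1* and *Cdh5* passed the background limit at passage 2 on both arrays and at passage 7 on 1. *Cdh5* had a change of -0.71 ± 0.17, under 2-fold (adjusted p = 0.044 in limma). *Pecam1* had -0.15 ± 0.40 and *Kdr*, the other defining gene, 0.84 ± 0.31 (adjusted p = 0.81 and 0.12). Of 10 skeletal muscle markers *Acta1* rose and *Myh3* and *Des* fell. *Lum*, *Col6a1*, *Emcn*, *Egfl7*, *Acta1*, *Myh3* and *Des* were named after their values were seen. The part of cell mixture in the members' changes was not tested.

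**Figure D4:**
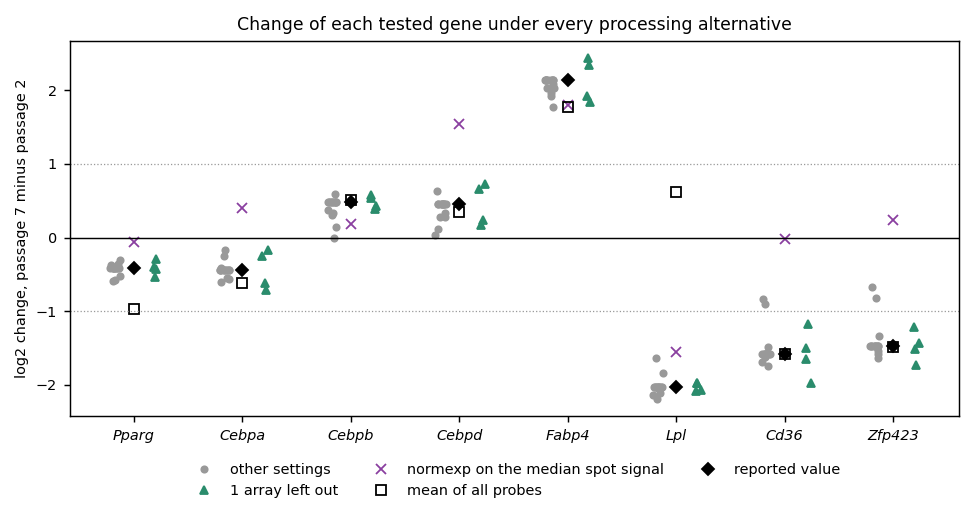
Change of each tested member (log2, passage 7 minus passage 2) as reported and under every processing alternative; dotted lines mark 2-fold in either direction. *Fabp4* lies at 1.78 or more in all settings, and *Lpl* at -1.56 or less except with the mean of its probes (0.62). *Zfp423* crosses to 0.23 with normexp correction on the median spot signal, where the median change of all genes was 0.50.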

How the data were processed

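Total RNA (0.5 µg per sample, per the labels' protocols) was labelled with Cy3 and hybridised to Agilent arrays, 2 per passage. Per the file headers, the software was Agilent Feature Extraction 10.5.1.1, and the spot files give each spot's processed signal intensity, already background-subtracted by the authors' scanner software, with its median and background intensity and flags. The authors' value table is deposited on a log2 scale; its columns correlated at 0.9986 or more with log2 median spot intensity, while its centring is unknown, and limma is the one tool in the submitters' processing notes.

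Probes were named by RefSeq accession (31089 probes, 17466 genes). The log2 processed signal, scaled to the 75th percentile of non-control spots on its array, was tested with limma 3.58.1 in R 4.3.3 on all 4 arrays, with Benjamini-Hochberg adjustment over all genes (the probe with the highest mean) or all probes; a probe entered when both arrays of either passage read it well above background. Flagged outlier spots were left out. All tests were two-sided, and the script was tested on simulated data. For a gene that neither array of a passage read well above background the fold is a bound, set by the higher of its own signal and the lowest signal well above background. No spot was saturated. Array design (mm9) and reference table (GRCm38.p6) differ in build, so the only coordinates given are those of the printed upstream regions, on GRCm38.p6.

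The members and lists were chosen with earlier results of these data known. Named were all members, up to 4 rises and 4 falls per list among called genes, 21 pathway genes whatever their values, and defining markers of fat and other cell types. The values of 1 gene that the rule names are not reported here. Alternatives were other scalings, background corrections, filters, probe rules, variance models, thresholds, a replicate block and leaving out each array. The planned normexp used the median spot intensity, since no mean signal is listed. With 1 array left out, the lone array of its passage is assumed to vary like the others.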

Additional observations from a re-analysis of the deposited data

How the results depend on the processing

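With 1 array left out, all genes called higher numbered 474 to 1965 and lower 613 to 1357, member genes higher 1 to 2 and lower 1 to 2, and member probes higher 0 to 4 and lower 0 to 6. The 4 higher probes include *Lpl* probe 1 (8.42), with a single array at passage 2 that holds its dark spot. Planned normexp correction on the median spot signal called 0 genes and 0 probes (limma; 662 genes had an unadjusted p under 0.05), and with it *Zfp423* was 0.23 (its other probes 0.30 and 0.74), *Pparg* probe 2 0.81, *Bmp2* 0.31, *Dpp4* 0.97, *Fabp7* 0.35, *Gpam* 1.44, *Ppargc1b* 0.076, *Tmem26* 0.25 and *Wnt6* 1.35. With marked backgrounds replaced, an alternative chosen after seeing the data, 756 genes rose and 488 fell, 1 member gene and 1 member probe passed in each direction, *Gpam* was 0.28 and *Wnt6* 0.19. With normexp and quantile normalization 563 genes rose and 712 fell, and 1 member gene and 1 member probe fell. Values from the authors' table gave 754 rises, and without a filter on dim probes 897 rose and 874 fell, with 0 member probes higher and 1 lower. The median change of all genes was 0.50 with planned normexp and 0.38 with marked backgrounds replaced, against 0.20 as reported. The mean of both probes turned *Lpl* to 0.62. The cause of these shifts was not tested, except that leaving out arrays means fewer samples and no filter more tests.

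Whether same-numbered arrays of the 2 passages share cultures is not stated in the labels; the differences between replicates 1 and 2 at the 2 passages correlated at -0.17 across 13848 genes. With the replicate block 522 genes rose and 651 fell, member genes were 1 higher and 1 lower, and 0 member probes passed in either direction. With the numbers crossed, also chosen after seeing the data, 1659 genes rose and 1407 fell, and 3 members fell. Of 168 values of the 8 tested members under alternatives, 15 lost the call, 2 reversed and 151 kept their side of the threshold; of these 151, 2 changed sign without a call, *Cebpa* (0.41, normexp) and *Cebpb* (-0.0029, quantile normalization). Signal over background limits what can be said of *Adipoq*, *Plin1* and *Cebpd*, and of the falls of *Zfp423* and *Cd36*. On the passage 7 arrays the processed signal was 70.6 and 31.3 for the brightest *Zfp423* probe and 60.6 and 44.5 for the *Cd36* probe. For the brighter *Cebpd* probe it was 95.4 and 29.9. These probes were well above background on all 4 arrays.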
